A study of Homo sapiens with 4 samples.

Results

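FHIT, WWOX, MACROD2 and CDH13 are very long human genes of or near common fragile sites, stretches of chromosome that tend to break when DNA replication is slowed. The listed ATAC-seq summits inside their gene bodies were described. A summit was counted in a gene when its hg19 position lay between the gene's ends, which were given to the nearest kb. This took 97 of 371521 listed summits, in 89 of 197823 listed regions. CDH13 held 71 of them, WWOX held 24, MACROD2 held 2 and FHIT held 0. The gene table of RefSeq lists FRA3B, a fragile site, among the synonyms of FHIT and FRA16D among those of WWOX, whereas no such synonym stands beside MACROD2 or CDH13 there.

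Open DNA was mapped by ATAC-seq, an assay that uses the Tn5 transposase to cut accessible sequence and add sequencing adapters. The cells were T47D-MTVL, derived from luminal breast cancer T47D cells and carrying 1 stable luciferase gene driven by MMTV. In the multiH1 knock-down (2 samples) an shRNA targeted multiple variants of histone H1, the linker histone that binds DNA between nucleosomes, and in the control (2 samples) a random shRNA was used. All 4 samples thus shared the line and its reporter, and the labels do not say whether the replicates were separate cultures. For these samples 1 list of peaks was used, whose track line names 225sh and RDsh. That 225sh is the multiH1 knock-down is an assumption from these names and from the name of the list, which holds multiH1sh. The name of the list also holds the word Differential, and none of the list's columns belongs to a single sample. Whether its summits mark open DNA in general or a difference between knock-down and control was not tested, since the labels do not say. For pileups under 400 reads its folds gave the same background of 2.01 reads at every summit. Such a fold thus compares a summit with 1 fixed value, and not with the control's reads at the same place. How summits were selected for the list remains unknown. No comparison of knock-down with control was computed here, and no spread between replicates stands beside any value. Luminal marker genes were not examined in this list, because no annotation of its build was used.

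Common fragile sites often lie in genes of a megabase or more that replicate late in S phase, and deletions there recur in tumours. FHIT is a hydrolase of dinucleoside polyphosphates and WWOX an oxidoreductase with WW domains, and both are known as tumour suppressors. MACROD2 removes mono-ADP-ribose from proteins. CDH13 encodes T-cadherin, a cadherin that is held to the membrane by a lipid anchor and lacks the cytoplasmic part of classical cadherins. Open promoters and enhancers are the sites that Tn5 cuts most readily, while the long introns of such genes are mostly packed in nucleosomes.

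The sequences around the first transcription start are shown because the strongest summits of WWOX and MACROD2, and the only summit beside FHIT, lay at the 5′ ends. They are RefSeq promoters of build GRCh38.p14, matched by symbol (3 of 4 genes), and run from 250 bases before to 50 bases after the start. The strand is that of the gene. Capitals mark the GC box, GGGCGG or its reverse complement CCGCCC.
FHIT: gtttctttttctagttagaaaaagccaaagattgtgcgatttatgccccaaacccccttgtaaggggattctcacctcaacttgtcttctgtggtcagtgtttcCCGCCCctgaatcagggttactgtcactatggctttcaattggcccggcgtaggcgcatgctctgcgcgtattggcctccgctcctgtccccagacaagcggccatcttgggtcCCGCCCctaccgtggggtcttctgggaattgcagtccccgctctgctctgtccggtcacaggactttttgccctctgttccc
WWOX: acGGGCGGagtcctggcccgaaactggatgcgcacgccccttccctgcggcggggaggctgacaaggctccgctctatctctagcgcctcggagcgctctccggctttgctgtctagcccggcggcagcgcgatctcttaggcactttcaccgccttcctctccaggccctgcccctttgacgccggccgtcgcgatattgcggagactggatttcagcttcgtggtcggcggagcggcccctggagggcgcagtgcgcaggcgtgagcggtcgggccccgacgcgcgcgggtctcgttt
MACROD2: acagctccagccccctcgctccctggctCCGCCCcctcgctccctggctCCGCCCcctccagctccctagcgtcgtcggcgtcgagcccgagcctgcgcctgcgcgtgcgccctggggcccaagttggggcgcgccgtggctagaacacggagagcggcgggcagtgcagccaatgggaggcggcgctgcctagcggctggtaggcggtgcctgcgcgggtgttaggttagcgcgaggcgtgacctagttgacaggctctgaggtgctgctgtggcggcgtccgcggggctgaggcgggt
FHIT and MACROD2 each had 2 GC boxes and WWOX had 1, and 44.95% of the 35116 promoters in the table hold at least 1 on either strand. The WWOX promoter had 38 CpG dinucleotides and MACROD2 had 34, against a median of 14 over all promoters, and 9.91% and 15.6% of promoters had at least as many. FHIT had 13. The internal starts that the table lists for FHIT and MACROD2 had 0 and 1 CpG and no GC box. A match of these letters is a description and not a binding site.

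The density of summits differed widely among the genes. CDH13 (chromosome 16, 82660001 to 83830000, plus strand) had 6.07 summits per 100 kb of gene body (95% exact Poisson interval 4.74 to 7.65). WWOX (chromosome 16, 78133001 to 79247000, plus strand) had 2.15 (1.38 to 3.21). MACROD2 (chromosome 20, 13976001 to 16034000, plus strand) had 0.0972 (0.0118 to 0.351). FHIT (chromosome 3, 59735001 to 61237000, minus strand) had 0 in its 1502 kb. These intervals cover counting error only, since neighbouring summits share reads and reads copied by PCR, with no molecular identifiers, can come from a single molecule. Nor do they cover differences in DNA copy number between these places, which were not examined. The order was thus CDH13, WWOX, MACROD2 and FHIT. CDH13 had 2.82 times the density of WWOX (1.75 to 4.68), and the intervals of CDH13, WWOX and MACROD2 did not overlap. MACROD2 and FHIT differed by only 2 summits and are not told apart by their counts.

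All 4 genes together had 1.66 summits per 100 kb, against 12.6 over chromosomes 1 to 22 and X. That mean is set by dense stretches: the median 100 kb window of the genome had 1 summit and the mean window had 12.97. Against stretches of equal length, the genes separated into a sparse pair and a pair near the middle. When chromosomes 1 to 22 and X were cut into stretches of the length of FHIT, 52 of 1865 had 0 summits as it did. Of 1351 stretches of the length of MACROD2, 40 had fewer than its 2 summits and 29 had as many. WWOX stood at the middle, with 24 summits where the median stretch of its length also had 24. CDH13 stood above it, with 71 summits against a median of 25, and 67.8% of stretches of its length had fewer.

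All 4 genes had fewer summits than the mean of their chromosome arm. CDH13 had 6.07 summits per 100 kb against 35.4 in the rest of the long arm of chromosome 16, a ratio of 0.172. WWOX on the same arm had 2.15 against 35.4, a ratio of 0.0608. MACROD2 had 0.0972 against 4.74 in the rest of the short arm of chromosome 20, a ratio of 0.0205. FHIT had 0 against 9.34 in the rest of the short arm of chromosome 3. No stretch of chromosome 20 of the length of MACROD2 had as few summits among the 27 compared, and 1 of 128 stretches of chromosome 3 had 0 like FHIT. On chromosome 16, 29 of 67 stretches of the length of CDH13 had fewer summits than it, and 13 of 69 of the length of WWOX had fewer than that gene. With each region counted once, the ratios of CDH13 and WWOX to their arm were 0.408 and 0.119. Among summits of 20 reads or more the ratios were 0.0471 in CDH13, 0.0212 in WWOX and 0.122 in MACROD2, so that MACROD2, with 2 summits, then had the highest ratio of these genes.

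**Figure D1:**
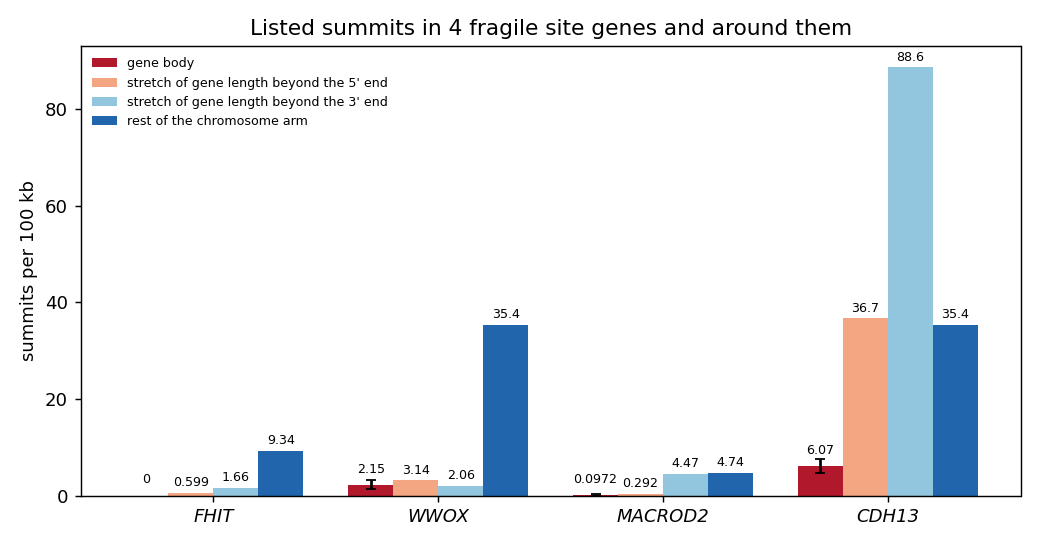
Summits per 100 kb (y axis) in the gene body, in the stretches of gene length beyond its 5′ and 3′ ends and in the rest of the chromosome arm, for each gene. Bars start at 0, and the error bars on gene bodies are 95% exact Poisson intervals (counting error only, not drawn for the count of 0). CDH13 at 6.07 lies below its flanks of gene length, at 36.7 and 88.6, and WWOX at 2.15 lies between its own, at 3.14 and 2.06; both placements differ for flanks of 500 kb.

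The surroundings were given by flanks of gene length and by the nearest 500 kb, and these differed for the genes of chromosome 16. In WWOX 24 summits lay in the gene, against 35 in the stretch of equal length before its 5′ end and 23 in that beyond its 3′ end, a ratio of gene to flanks of 0.828. CDH13 had 71, against 429 before it and 1037 beyond it, a ratio of 0.0969. Of the 429 summits before CDH13, 324 lay 700 to 1100 kb from its 5′ end. In the nearest 500 kb the order turned round on the 5′ side: CDH13 had 6.07 summits per 100 kb, against 3.8 in the 500 kb before it and 113 in the 500 kb beyond it. WWOX had 2.15, against 2.6 before it and 3.4 beyond it, and so lay below both. The stretch of gene length beyond CDH13 reaches into the dense end of chromosome 16. Its densest 100 kb window, 1300 to 1400 kb after the 5′ end, held 223 summits. The densest window within 3 Mb of the gene, with 517 summits, lay further out, at 2800 to 2900 kb. MACROD2 had 2 summits, against 6 before its 5′ end and 92 beyond its 3′ end. FHIT had 0, against 9 before its 5′ end and 25 beyond its 3′ end. The 500 kb beyond the 3′ end of FHIT also had 0 summits, and the 500 kb before its 5′ end had 3.

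**Figure D2:**
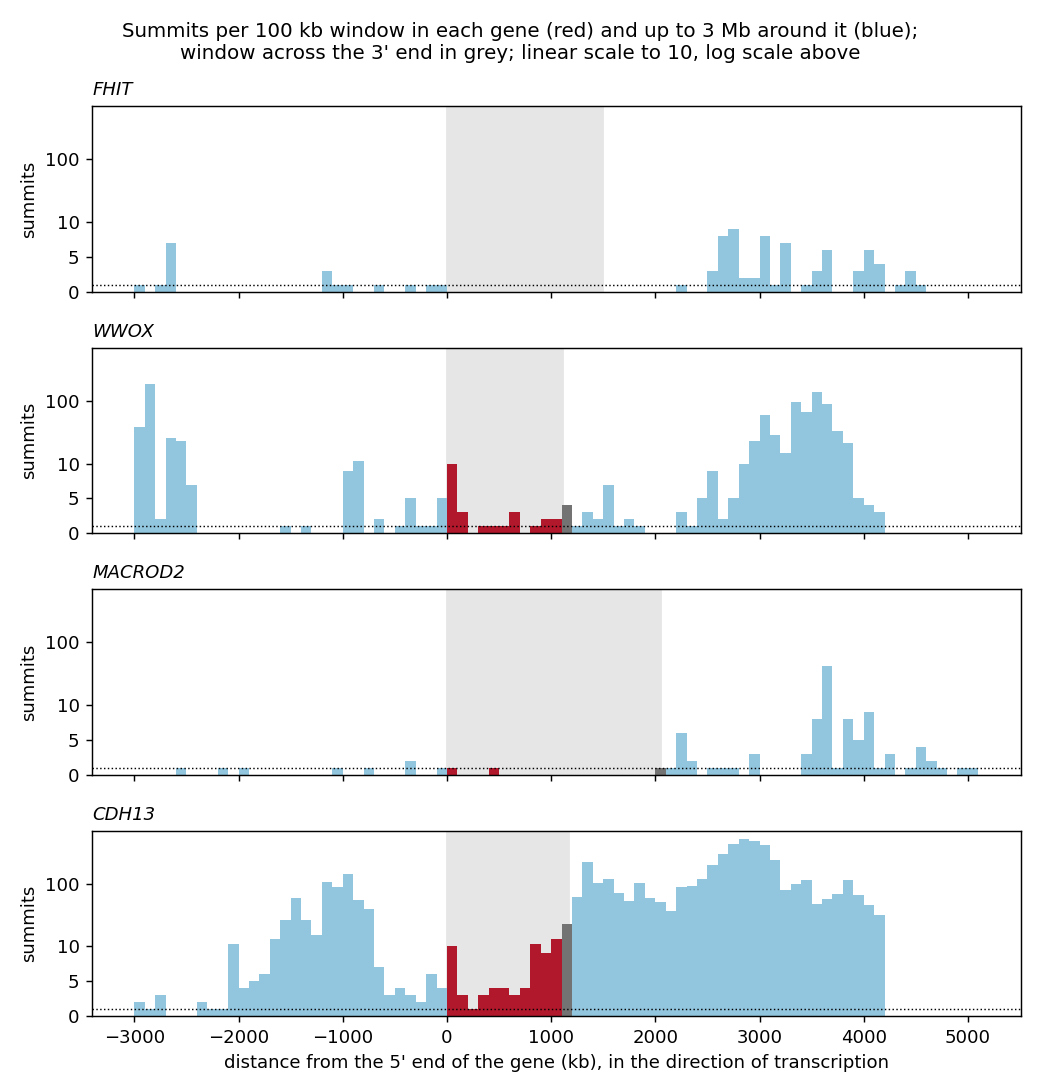
Summits in each 100 kb window (y axis, linear to 10 and logarithmic above) by distance from the 5′ end of the gene (x axis, kb, in the direction of transcription), from 3 Mb before each gene to 3 Mb beyond it. Red bars lie wholly in the gene, which is shaded, grey bars cross its 3′ end, and the dotted line is the genome's median window of 1 summit. FHIT has no bar in the shaded stretch, and the red bars of CDH13 run from 1 to 13 summits.

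Inside WWOX the summits gathered at the 5′ end. Of its 24 summits 9 lay in the first 5 kb and 14 (58.3%, 95% Wilson interval 38.8 to 75.5%) in the first of 3 equal parts of the gene, against 5 in the middle part and 5 in the last. With each region counted once, the share in the first part was 47.4%. The first 100 kb window had 10 summits, and the other 10 full windows had 0 to 3. The region from 78133198 to 78134100, which spans 903 bp, held 6 summits, the most of any region in these genes. Its summits had pileups, in reads over the summit, of 41, 51, 35, 18, 17 and 14 in the direction of transcription. The summit at 78133412, 411 bp into the gene, had the highest pileup of all 97 members (51 reads, fold enrichment 17.3, −log10 q 49.6). Of the summits inside the gene, that nearest to the 5′ end was at 78133313, 312 bp in. A summit at 78132816, with 13 reads, lay 185 bp before that end and was not counted. Distances in bp, here and for the other genes, are to ends given to the nearest kb. Whether a summit so close to an end is counted depends on that rounding. The other 3 summits of the first 5 kb, at 2507, 3703 and 4996 bp, had 13, 15 and 14 reads. Beyond the first 10 kb the 15 summits had 10 to 17 reads, and none reached 20 reads. Without the first 10 kb the density of WWOX was 1.36 per 100 kb, and without the first and last 10 kb 33.3% of its summits lay in the first of the 3 parts. The longest stretch without a summit ran for 225.1 kb from 78272937 to 78498059.

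In CDH13 the summits were densest toward the 3′ end, although its first window held 10, as many as that of WWOX. The last of its 3 equal parts held 39 of 71 summits (54.9%, 43.4 to 65.95%), and the first and middle parts held 16 each. This equals 10 summits per 100 kb in the last part and 4.10 in each of the others. The full 100 kb windows from 5′ to 3′ had 10, 3, 1, 3, 4, 4, 3, 4, 11, 9 and 13 summits, so that the ends were denser than the middle. The window from 1000 to 1100 kb was the densest. Summits stood a median of 6.60 kb apart, against 14.1 kb in WWOX. The longest stretch without a summit ran for 116 kb, from 82829363 to 82945287. Of its 68 regions 65 had a single summit, and the other 3 had 2 each.

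The 5′ end of CDH13 was also marked, less strongly than that of WWOX. The summit nearest to it lay at 82660605, 604 bp into the gene, with 19 reads. The region from 82660881 to 82661743, one of the 3 with 2 summits, followed with 21 and 28 reads. The summit at 82661491 (28 reads, fold 9.64, −log10 q 20.1) was the strongest of the gene. After the first 10 kb the highest pileup was 24 reads, at 83692030 in the last part of the gene, and 5 of 65 summits there had 20 reads or more. The median pileup was 11.5 reads in the first part, 12.5 in the middle and 14 in the last. Summits of 20 reads or more did not show that rise, with 3 of 16 in the first part, 1 of 16 in the middle and 3 of 39 in the last.

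MACROD2 had a summit at its start and 1 more in its body. The first lay at 13976032, 31 bp into the gene, in a region from 13975732 to 13976223 that crosses the gene's rounded end. It had 49 reads (fold 16.6, −log10 q 46.8), and a second summit of the same region, with 44 reads, lay 117 bp before that end and was not counted. The other summit, at 14441620, stood 466 kb into the gene with 21 reads (fold 7.31), in a region of 1791 bp, the widest in these genes. From there 1592 kb (77.4% of the gene) held none up to the 3′ end. The whole stretch to the next summit, at 16062734, was 1621 kb, the longest between neighbouring summits on chromosome 20 outside the centromere gap. RefSeq lists 1 other protein-coding gene, FLRT3, inside MACROD2, and none inside the other 3 genes.

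FHIT had no summit in its body, yet it had one at its 5′ end. That summit lay at 61237190, 189 bp before the rounded end, in a region from 61236982 to 61237279 that crosses that end. It had 35 reads (fold 11.97, −log10 q 28.3), as many as the third summit of WWOX. With the gene's ends moved outward by 1 kb it would be the only summit of FHIT. On the other side the nearest summit was 699 kb beyond the 3′ end, at 59035873, with 23 reads. The stretch of 2201 kb between these summits contains the whole gene. Outside the centromere gaps 40 longer stretches lay on chromosomes 1 to 22 and X, and 2 of these on chromosome 3.

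**Figure D3:**
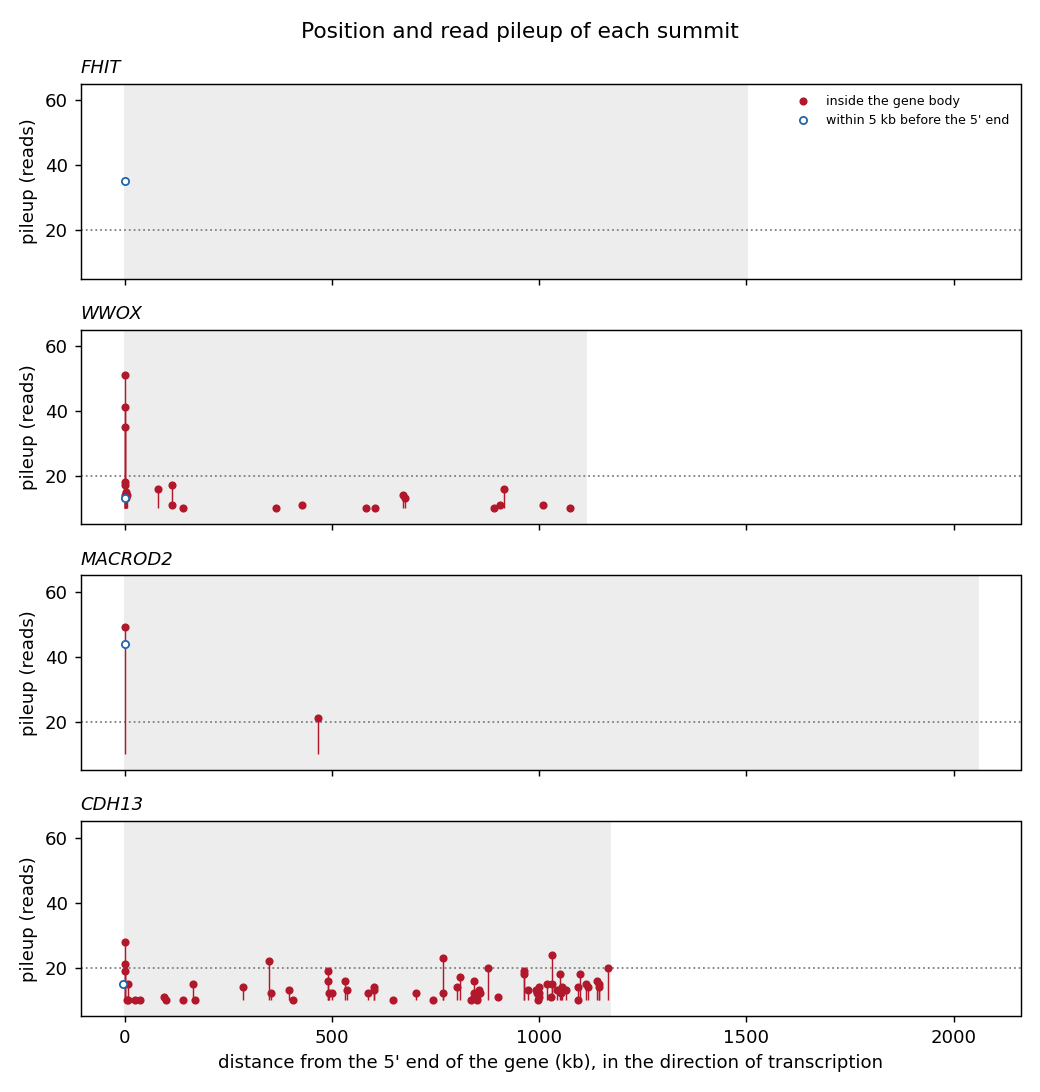
Each summit by its distance from the 5′ end of the gene (x axis, kb, in the direction of transcription) and its pileup (y axis, reads). Filled points lie inside the gene body (shaded), open points within 5 kb before its 5′ end, and the dotted line marks 20 reads. The tallest points of WWOX (51 reads) and MACROD2 (49), and the lone point of FHIT (35), stand at the 5′ end, while the CDH13 points crowd toward the 3′ end.

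Compared with all listed summits, those of these genes were mostly weak. Their median pileup was 13 reads, against 15 over all listed summits. Of the 97 members 12 (12.4%, 95% Wilson interval 7.22 to 20.4%) had 20 reads or more, against 26.5% of all listed summits. At the lowest listed pileup of 10 reads were 20 of 97 (20.6%), against 8.36% of all. By gene, 7 of 71 summits in CDH13 (9.86%, 4.86 to 18.98%), 3 of 24 in WWOX (12.5%, 4.34 to 31.0%) and 2 of 2 in MACROD2 had 20 reads or more. On chromosome 16 as a whole 32.8% did. Of the 16 summits in the first 10 kb of a gene 6 had 20 reads or more (37.5%, 18.5 to 61.4%), and several of these shared a region. That interval holds the 26.5% of all listed summits. Of the 81 further in 6 had 20 reads or more (7.41%, 3.44 to 15.2%). The first 10 kb was chosen as a boundary after the positions were seen. The regions were narrow, with a median width of 156 bp against 208 bp over all, and 94.4% had a single summit, against 71.8% of all regions.

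**Figure D4:**
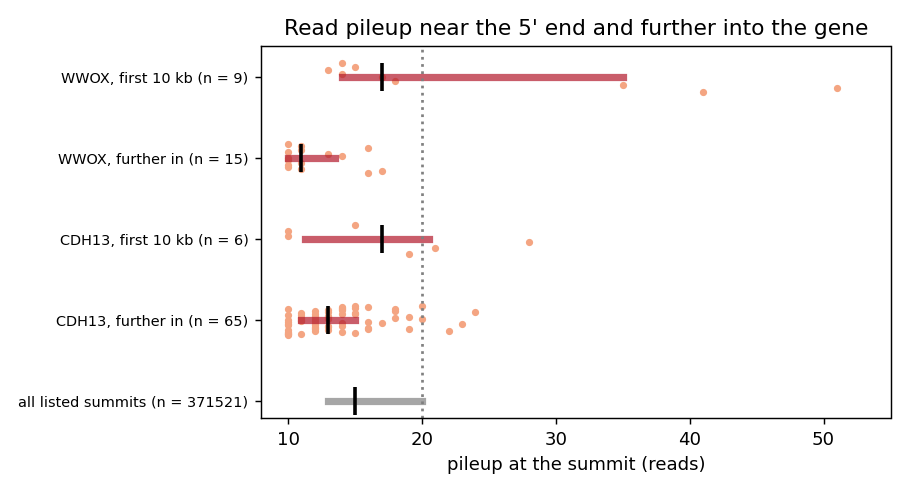
Pileup at each summit (x axis, reads) of WWOX and CDH13 in the first 10 kb of the gene and further in, above all listed summits. Points are summits, thick lines run from the 25th to the 75th percentile, black ticks are medians and the dotted line marks 20 reads. Further into the gene the median is 11 reads in WWOX and 13 in CDH13, against 15 over all listed summits.

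Empty windows were counted as well, but in FHIT and MACROD2 they restate the counts above. With 0 and 2 summits, at least 15 of 15 and 18 of 20 full windows had to be empty. All 15 full 100 kb windows of FHIT were without a summit, as were 18 of 20 in MACROD2, 2 of 11 in WWOX and 0 of 11 in CDH13. Over the genes this made 35 of 57 windows (61.4%), against 40.1% of 28450 windows in the genome. That pooled share is thus mostly fixed by the counts of FHIT and MACROD2 and is no further result. The empty windows thus lay mainly in FHIT and MACROD2, and the share in WWOX and CDH13 was below that of the genome. A window is empty when no summit in it reached the list's minimum of 10 reads over a background of 2.01 reads, so the list does not show that such sequence was closed. Whether a summit lies in an exon or an intron was not analysed here.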

How the data were processed

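Per the labels' protocols, 75000 cells per sample were treated with Tn5, and the amplified libraries were sequenced on an Illumina instrument. The submitters' processing notes name the build hg19, the aligner Bowtie 1.1.2 and the peak caller MACS2. For MACS2 options, duplicates and pooling the sources used here give nothing. The deposited fold is the ratio of pileup to background at the summit, with 1 added to each. The authors deposited p-values and q-values as −log10 values, and a score that equals 10 times −log10 p within 1 unit in all 371521 lines. Each line is 1 summit, and lines that share start and end belong to 1 region. Positions are given from 1.

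Pileups were recovered from fold = (pileup + 1) / (background + 1) and the Poisson tail, for pileups under 400 reads. All 182 distinct pairs of fold and p solved (tolerance 0.001 in −log10 p), with a background of 2.01 reads and a range of 5.03e-06 among pairs. This solver was tested on simulated data. The total reads per sample are unknown, so that background is the only measure of depth. Rates carry exact Poisson intervals and shares Wilson intervals, both at 95%. Arms exclude the stretch without regions over the centromere, and lengths are those between the outermost listed regions. The centromere position and the strand of CDH13 are background knowledge. Named in each gene were the strongest summit, that nearest the 5′ end, the densest 100 kb window, the region with the most summits and the longest stretch without a summit. Genes, members and lists were chosen with earlier results of these data known. Knock-down and control were not tested against each other, as no column of the list belongs to a sample. The alternatives were each region once, strong summits, overlap, merged regions, other surroundings and other gene ends. Python 3.11.15, numpy 2.4.6, scipy 1.17.1, pandas 2.3.3, statsmodels 0.14.6 and matplotlib 3.10.9 were used. The gene and promoter tables are of GRCh38.p14, and none of their coordinates were used with the list.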

Additional observations from a re-analysis of the deposited data

How the results depend on the processing

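The alternatives with gene ends moved outward by 1 kb and without the first 10 kb were chosen after the data were seen. At 20 reads or more the density per 100 kb was 0.269 in WWOX, 0.598 in CDH13 and still 0.0972 in MACROD2, the ratio to the arm was 0.0212, 0.0471 and 0.122, and the longest stretch without a summit was 1113 kb in WWOX and 418 kb in CDH13. In the 50% of summits with the highest fold the density was 0.808 in WWOX and 2.05 in CDH13. The densities can only be lower or equal and the stretches longer or equal by construction, since fewer summits enter, whereas the ratios to the arm are not bound to move one way. Without the first 10 kb it was 1.36 in WWOX and 0.0488 in MACROD2, and without the first and last 10 kb 33.3% of WWOX summits lay in the first of 3 equal parts. FHIT had 0.0666 regions per 100 kb by overlap and 0.0665 summits with its ends moved by 1 kb, 1 region in each case. MACROD2 had 0.0486 with regions within 100 bp merged, as the midpoint of its first region falls outside. With each region counted once the ratio to the arm was 0.119 in WWOX and 0.408 in CDH13, and that to the flanks 0.160 in CDH13. MACROD2 had a ratio of 0.00447 to the rest of its chromosome and of 0.0748 to flanks of 500 kb. A summit is listed only from 10 reads, which limits what a count of 0 can show. Causes of these values were not tested. No ratio of a gene to its arm or to both flanks together rose above 1, whereas the other results have no direction. Against single flanks, CDH13 at 6.07 per 100 kb lay above the 3.8 of the 500 kb before it. WWOX at 2.15 lay above the 2.06 of the stretch of gene length beyond its 3′ end. The order of density, CDH13, WWOX, MACROD2 and FHIT, held under all 7 density alternatives. Where an alternative only leaves out summits, the 0 of FHIT cannot change, so its last place there was fixed. The order of MACROD2 and FHIT rests on very few summits. No paired analysis was possible because no column of the list belongs to a sample, which also means that no replicate could be left out.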

Other observations

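Between WWOX and CDH13 lay 3.41 Mb of chromosome 16 with 649 summits, or 19.02 per 100 kb. Its 34 full windows of 100 kb, counted from the 3′ end of WWOX, had 0 to 152 summits. The sparse stretches around each gene thus enclosed a dense one, which peaked in the window from 2400 to 2500 kb beyond WWOX. The window after it had 57 summits, and the last 6 windows before CDH13 had 2 to 5. At the 3′ end of CDH13 the count climbed within a few windows: the last full window had 13 summits, the window across the 3′ end had 23, and the next had 62 and 223. Around MACROD2 a single window, from 3600 to 3700 kb after the 5′ end, held 42 of the 92 summits of its 3′ flank.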
